A study of Saccharomyces cerevisiae with 6 samples.

Results

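Glycolysis and ethanol fermentation in budding yeast, Saccharomyces cerevisiae, were followed here through the transcripts of 32 enzyme genes, chosen by name from the 5795 genes of the table and all found there once. They cover every step from hexose phosphorylation to pyruvate, the conversion of pyruvate to ethanol, the side branch to acetate and acetyl-CoA, and the branch to glycerol. The cells came from 3 groups of 2 cultures: a strain deleted for GAT1 (gat1Δ) grown with proline, a strain deleted for DAL80 (dal80Δ) grown with glutamine, and the gat1Δ strain grown with glutamine. Gat1 is a GATA-family factor that switches on genes needed to live on proline and other poor nitrogen sources, and Dal80 is a repressor of many of those genes. Every group therefore lacked a GATA factor. No wild-type culture and no dal80Δ culture in proline was analysed here, the carbon source and strain background are not given in the labels, and each strain is only as general as the isolate that was grown.

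Yeast growing on sugar turns most of it into ethanol even in air, and it carries the glycolytic transcripts among its most abundant. Most steps have several isoenzyme genes, of which a main gene does most of the work during fermentation while others are used on other carbon sources, under stress or in the mitochondrion. The main genes of the trunk are known to be driven by the activator Gcr1, which binds the letters CTTCC, together with Rap1, while several of the side genes carry the stress response element AGGGG, bound by Msn2 and Msn4.

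The libraries held 17009715 and 28842495 recovered reads in gat1Δ proline, 34718641 and 30172764 in dal80Δ glutamine, and 17480765 and 27217650 in gat1Δ glutamine, in the order of replicates 1 and 2, an order kept throughout. The level of a gene is its scaled reads, the authors' count after libraries were set to almost equal gene totals, and genes are compared with each other by density, the scaled reads per base. The deleted genes fitted the labels. GAT1 had 2 or 3 recovered reads in every gat1Δ library and at least 1062 in dal80Δ, while DAL80 had 1 and 0 reads in dal80Δ (a count of 0 allows up to 3) but also only 2 and 1 in gat1Δ glutamine. Markers of mating type differed between the groups as well. The 7 a-specific genes summed to 6517 and 4922 scaled reads in gat1Δ proline, 27468 and 25720 in dal80Δ glutamine, and 193 and 171 in gat1Δ glutamine. The 4 α-specific genes summed to 84262 and 89581, to 448 and 433, and to 36055 and 36270 in the same order of groups. All 11 markers had reads in each group, though as few as 1 and 3 recovered reads for ASG7 in gat1Δ glutamine and 2 and 4 for MF(ALPHA)2 in dal80Δ. The part of the markers in the results below was not tested, and in glutamine the mating type of the strains cannot be told apart from their genotype. Between the gat1Δ groups all 7 a-specific and 2 of the 4 α-specific genes were called higher in proline. The nitrogen source thus cannot be told apart from that difference in markers.

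The 32 genes took far fewer of the reads in proline. They held 4.44% and 5.53% of all reads over genes in gat1Δ proline, against 18.5% and 18.9% in gat1Δ glutamine. In dal80Δ glutamine they held 18.1% and 19.1%, on both sides of the gat1Δ glutamine libraries. The mean share was 4.99% ± 0.769 in gat1Δ proline, 18.6% ± 0.703 in dal80Δ glutamine and 18.7% ± 0.317 in gat1Δ glutamine (SD, n = 2). The difference of -13.7 percentage points between proline and glutamine was many times the spread, although an exact two-sided permutation test of 2 libraries against 2 cannot go below p = 0.333, the value it gave. The enzymes of the trunk from hexose to pyruvate made up 3.70% ± 0.671 in gat1Δ proline, 14.5% ± 0.556 in dal80Δ glutamine and 14.8% ± 0.133 in gat1Δ glutamine, and TDH3 alone took 1.01%, 3.88% and 3.62%. The acetate branch held 0.215% ± 0.0147 in gat1Δ proline, 0.258% ± 0.000476 in dal80Δ glutamine and 0.225% ± 0.0161 in gat1Δ glutamine. Its share overlapped between the gat1Δ groups, at 0.225% and 0.204% in proline and 0.213% and 0.236% in glutamine. Both dal80Δ libraries (0.258% and 0.257%) lay above those of gat1Δ glutamine.

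**Figure D1:**
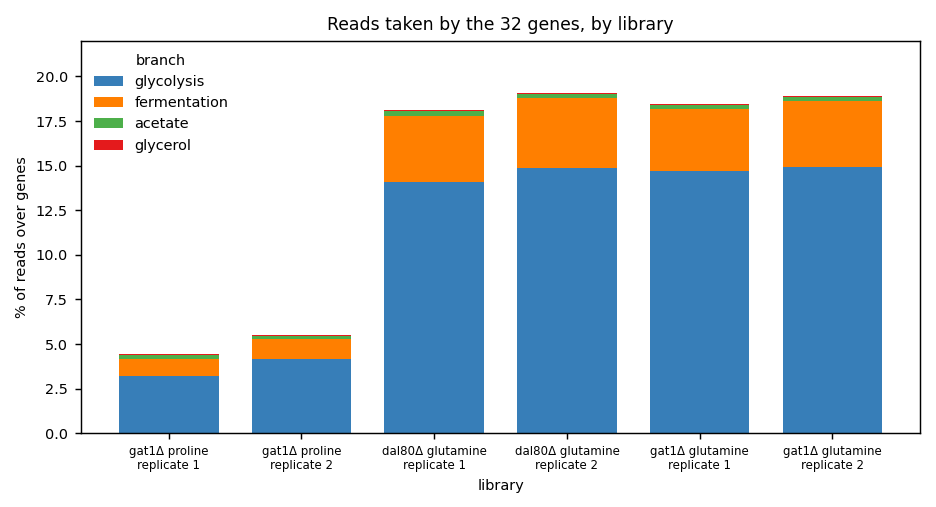
Share of the reads over genes (y axis, percent) taken by the 32 genes in each of the 6 libraries (x axis), stacked by branch. Both gat1Δ proline libraries stand at 4.44% and 5.53%, and the 4 glutamine libraries lie between 18.1% and 19.1%.

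By density, 4 of the 32 were among the 20 densest genes of the transcriptome in gat1Δ proline, against 11 in dal80Δ glutamine and 11 in gat1Δ glutamine. TDH3 was the densest gene of all in both glutamine groups and the fifth in gat1Δ proline (rank 5). At the other end stood PDC6, ADH2, GPM2 and GPM3, whose densities stayed below 0.25 scaled reads per base in every library, where TDH3 reached 460. The libraries of gat1Δ proline also differed from each other in a shared direction. In 24 of the 32 genes replicate 2 was higher, against 39.6% of the other genes. The median log2 ratio of replicate 2 over replicate 1 was 0.29, against -0.07 over the other genes. Among the 32, ALD5 (-0.73) and HXK1 (0.88) marked the ends of the range. In dal80Δ glutamine the median ratio was 0.07, against -0.01 over the other genes, and in gat1Δ glutamine it was 0.01, against -0.12. Replicate 2 was higher there for 21 and 17 of the 32 genes, against 48.2% and 32.1% of the other genes.

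**Figure D2:**
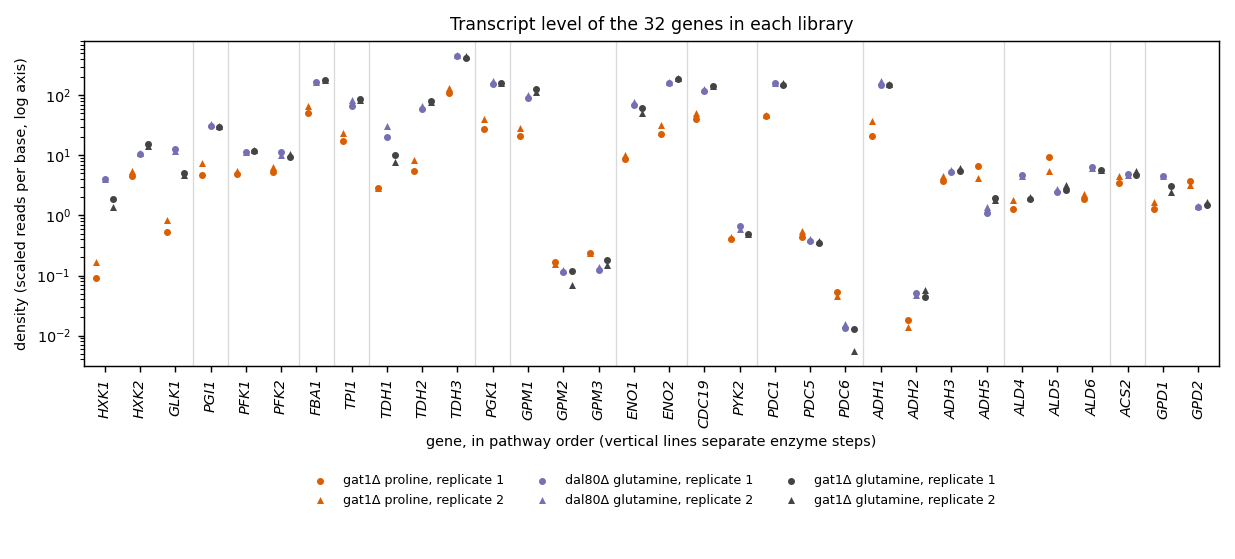
Density (y axis, scaled reads per base on a log axis) of each gene (x axis, in pathway order) in each library, with circles for replicate 1 and triangles for replicate 2. The main genes of the trunk lie lower in both gat1Δ proline libraries than in the 4 glutamine libraries, whereas ADH5, ALD5, GPD2 and PDC6 lie higher.

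The comparison of proline with glutamine in gat1Δ cells asks how the nitrogen source goes with the transcripts of cells without Gat1. These groups also differed in the markers of mating type given above. Of the 32 genes 22 fell, 7 rose and 3 did not pass limma's moderated test at an adjusted p of 0.05. Over all 5594 genes tested 15.1% fell and 56.5% rose, so the balance of falls and rises among the 32 was the reverse of that over all genes. Their median log2 fold change was -1.50, where the median of all genes was 0.50. The scaling sets that last value: with factors from a trimmed mean of log ratios (TMM) the median of all genes was 0.06, and 25 of the 32 fell and 4 rose, against 29.8% and 33.8% of all genes. When each library was scaled to the total over all genes other than these 32, the median of all genes was 0.30. Again 25 of the 32 were lower and 4 higher, where 1164 of the 5594 genes were lower and 2559 higher. The libraries of proline and glutamine did not overlap for any of the 32, nor for 86.5% of all genes tested.

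Hexose phosphorylation starts the pathway, through hexokinase 2 (HXK2), the main enzyme on glucose, hexokinase 1 (HXK1) and glucokinase (GLK1). HXK1 (YFR053C, R64, chromosome 6, 253592 to 255049, minus strand) had 133 and 245 scaled reads in gat1Δ proline, against 2739 and 1984 in gat1Δ glutamine. It fell by 3.46 ± 0.24 on the log2 scale (SE, adjusted p = 7.08e-06), the ninth largest fall of all genes on the scale with the pseudocount (rank 9). GLK1 (YCL040W, chromosome 3, 50838 to 52340, plus strand) had 808 and 1244 scaled reads in gat1Δ proline, against 7782 and 7061 in gat1Δ glutamine. Its change was -2.84 ± 0.19, and it shares 106 bases with YCL042W on the same strand, a reading frame whose scaled reads were 158 and 173 in gat1Δ proline and 1573 and 1390 in gat1Δ glutamine. HXK2 (YGL253W, chromosome 7, 23935 to 25395, plus strand) fell less, with 6593 and 8130 scaled reads against 22391 and 20584 (-1.55 ± 0.15). HXK2 made up 86.3% ± 2.08 of the density of the step in gat1Δ proline and 69.2% ± 1.03 in gat1Δ glutamine.

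Phosphoglucose isomerase (PGI1) and phosphofructokinase, whose α and β subunits are encoded by PFK1 and PFK2, follow. PGI1 had 7819 and 12599 scaled reads in gat1Δ proline, against 50101 and 51038 in gat1Δ glutamine (-2.34 ± 0.21). Both PFK genes fell. PFK1 (YGR240C, chromosome 7, 970771 to 973734, minus strand) had 14336 and 16461 scaled reads in gat1Δ proline, against 35424 and 37037 in gat1Δ glutamine (-1.23 ± 0.13). PFK2 changed by -0.77 ± 0.15 (adjusted p = 0.00168). The summed density of this step in gat1Δ proline was 49.7% of that in gat1Δ glutamine, the highest percentage of the 10 steps of the trunk. Enolase lay at the other end with 14.8%, and the remaining 8 steps lay between 20.2% for PGI1 and 32.7% for aldolase. These percentages follow the authors' scaling.

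The middle of the trunk holds aldolase (FBA1), triosephosphate isomerase (TPI1) and glyceraldehyde-3-phosphate dehydrogenase, the step that makes NADH. FBA1 changed by -1.63 ± 0.18 and TPI1 by -2.07 ± 0.19. TDH3 (YGR192C, chromosome 7, 882812 to 883810, minus strand), the main dehydrogenase gene, had 107508 and 131045 scaled reads in gat1Δ proline, against 412249 and 443711 in gat1Δ glutamine (-1.85 ± 0.17). TDH2 (YJR009C, chromosome 10, 453683 to 454681, minus strand) had 5453 and 8413 in gat1Δ proline, against 79335 and 77340 in gat1Δ glutamine. It fell by 3.53 ± 0.20, more than HXK1 on this scale. By the count tests HXK1 changed more, at -4.11 against -4.00 for TDH2 in edgeR and at -4.17 against -4.05 in DESeq2. TDH1, a copy known for its use outside rapid growth, had 2879 and 2821 against 10292 and 7726 (-1.64 ± 0.21). TDH2 made up 5.31% ± 0.853 of the density of the step in gat1Δ proline and 15.2% ± 0.835 in gat1Δ glutamine, with no overlap. The coding sequences of TDH2 and TDH3 match in 957 of 999 bases, and 232 of their 950 windows of 50 bases, the read length, are identical in both. How reads with several matches were assigned is not given in the sources used here, so the split between these copies, and between ENO1 and ENO2, is uncertain.

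Phosphoglycerate kinase (PGK1), phosphoglycerate mutase (GPM1), enolase (ENO1 and ENO2) and pyruvate kinase (CDC19) complete the trunk. PGK1 changed by -2.26 ± 0.20. GPM1 (YKL152C, chromosome 11, 163642 to 164385, minus strand) had 15646 and 21074 scaled reads in gat1Δ proline, against 93723 and 83177 in gat1Δ glutamine (-2.28 ± 0.18). Enolase had the deepest fall in summed density of all the steps measured. ENO2 (YHR174W, chromosome 8, 451327 to 452640, plus strand) had 29438 and 41813 in gat1Δ proline, against 242634 and 259644 in gat1Δ glutamine (-2.84 ± 0.19). ENO1 (YGR254W, chromosome 7, 1000927 to 1002240, plus strand) had 11234 and 13265 in gat1Δ proline, against 79437 and 65539 in gat1Δ glutamine (-2.56 ± 0.16). The ENO1 share of the step overlapped between the groups, at 25.9% ± 2.50 in gat1Δ proline and 22.4% ± 3.19 in gat1Δ glutamine, and 299 of 1265 windows of 50 bases are identical in both genes. CDC19 (YAL038W, chromosome 1, 71786 to 73288, plus strand) had 61493 and 75239 in gat1Δ proline, against 214629 and 215677 in gat1Δ glutamine (-1.66 ± 0.16).

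The side genes of the mutase and pyruvate kinase steps stood apart from their main genes. PYK2, a second pyruvate kinase repressed by glucose, stood at -0.21 ± 0.13 (adjusted p = 0.166) with an interval from -0.50 to 0.08, and after TMM rescaling it was lower at -0.69. GPM2 (0.67 ± 0.20) and GPM3 (0.48 ± 0.14), homologs of GPM1 with no clear role in glycolysis, passed as higher, but after TMM rescaling they stood at 0.24 and 0.03 and no longer passed. Neither call held without gat1Δ proline replicate 1 (0.61 and 0.47) or without gat1Δ glutamine replicate 2 (0.35 and 0.36).

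Windows upstream of 4 of the trunk genes show the letters known for Gcr1 and Rap1, searched as CTTCC and ACCCNNACA on both strands in the 600 bases before each start codon. Sequences are those of RefSeq build R64, on the strand of the gene, with matches to either motif in capitals. The windows run from -480 to -419 for PGK1 (chr3:137266-137327, plus strand), from -491 to -451 for ENO1 (chr7:1000436-1000476, plus), from -515 to -367 for TDH2 (chr10:455048-455196, minus) and from -574 to -495 for TDH3 (chr7:884305-884384, minus), counted from the start codon.
PGK1: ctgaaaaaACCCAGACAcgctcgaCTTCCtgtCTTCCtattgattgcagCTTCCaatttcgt
ENO1: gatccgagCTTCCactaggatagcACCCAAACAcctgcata
TDH2: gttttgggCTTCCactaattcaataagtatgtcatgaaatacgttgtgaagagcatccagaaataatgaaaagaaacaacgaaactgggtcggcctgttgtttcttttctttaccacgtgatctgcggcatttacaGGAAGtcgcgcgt
TDH3: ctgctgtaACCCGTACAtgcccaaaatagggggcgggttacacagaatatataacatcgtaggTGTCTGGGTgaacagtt
In the stretches shown PGK1 has 3 copies of CTTCC just after the Rap1 letters, ENO1 has 1 copy just before them, TDH2 has only CTTCC, and TDH3 has only the Rap1 letters. Over the 600 bases CTTCC occurs 5 times in PGK1, 3 times in TDH2 and 2 times in ENO1. The 4 genes are a selection, and HXK2, a trunk gene that also fell, has neither motif. Over the genome the Rap1 letters are in 6.59% of 5769 upstream windows of this length, and 7 of the 32 genes have them. All 7 are among the genes that fell, but 22 of the 32 fell, and a link between these letters and the fall was not tested. CTTCC is so short that 72.5% of all windows have it, as have 18 of the 22 genes that fell and 4 of the 7 that rose. In these windows CTTCC overlapped itself by 1 base in PDC1 and in ADH1.

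**Figure D3:**
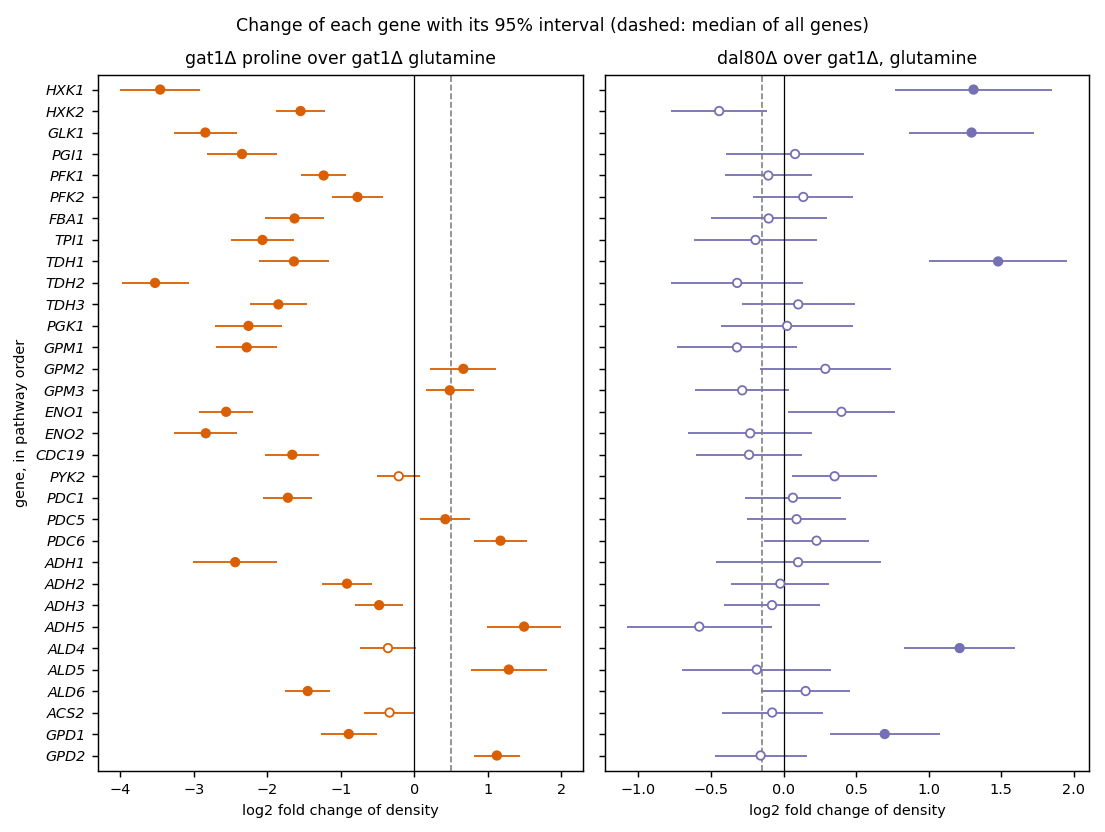
Log2 fold change of density (x axis) of each gene (y axis, in pathway order) with its 95% interval, for gat1Δ proline over gat1Δ glutamine (left) and dal80Δ over gat1Δ in glutamine (right). Filled points passed an adjusted p of 0.05, and the dashed line is the median of all genes, at 0.50 on the left and -0.15 on the right. On the left 22 genes lie below 0 and past the threshold. On the right 5 genes lie above 0 and past it.

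Fermentation proper turns pyruvate into acetaldehyde by pyruvate decarboxylase and then into ethanol by alcohol dehydrogenase. PDC1 (YLR044C, chromosome 12, 232390 to 234081, minus strand), the main decarboxylase gene, had 76662 and 80359 scaled reads in gat1Δ proline, against 248729 and 268981 in gat1Δ glutamine (-1.72 ± 0.15). ADH1 (YOL086C, chromosome 15, 159548 to 160594, minus strand), the main ethanol-forming dehydrogenase gene, had 21854 and 38894 in gat1Δ proline, against 154179 and 161961 in gat1Δ glutamine (-2.44 ± 0.25). Its proline libraries lay further apart than those of PDC1, yet both were far below either glutamine library. PDC5, a reserve copy of PDC1, stood at 0.42 ± 0.15 (adjusted p = 0.0307), but at -0.06 after TMM rescaling, and without either library of gat1Δ glutamine, without either library of dal80Δ or without gat1Δ proline replicate 2 its call ended too, at 0.24 to 0.46. PDC6, a minor copy, had 90 and 125 recovered reads in gat1Δ proline, against 25 and 17 in gat1Δ glutamine, and rose by 1.17 ± 0.16 on the scale with the pseudocount. The ratio of its mean scaled reads was 5.31, and 8.81 without gat1Δ glutamine replicate 1.

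The remaining alcohol dehydrogenase genes went different ways. ADH5 (YBR145W, chromosome 2, 533762 to 534817, plus strand), a minor ethanol-forming isoenzyme, had 7148 and 4389 scaled reads in gat1Δ proline, against 2024 and 1925 in gat1Δ glutamine. It rose by 1.49 ± 0.22 (adjusted p = 0.000338), and by 0.99 after TMM rescaling. PDC6 rose by more in edgeR, at 1.98 against 1.03 for ADH5. ADH3, the mitochondrial isoenzyme, changed by -0.48 ± 0.15 (adjusted p = 0.0156), a call that ended without gat1Δ proline replicate 1 (-0.34) or gat1Δ glutamine replicate 2 (-0.42). ADH2, the glucose-repressed enzyme that uses ethanol, had only 19 and 24 recovered reads in gat1Δ proline, against 53 and 108 in gat1Δ glutamine. Its change was -0.92 ± 0.15 on the scale with the pseudocount and -2.21 in edgeR, and it shares 140 of 998 windows of 50 bases with ADH1, whose reads outnumbered it by far. ADH1 held 66.4% and 80.9% of the density of the step in gat1Δ proline, against 95.1% and 95.1% in gat1Δ glutamine. ADH5 held 21.5% and 9.05% in gat1Δ proline, against 1.24% and 1.12% in gat1Δ glutamine.

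The acetate and glycerol branches held exchanges of isoenzymes. ALD5 (YER073W, chromosome 5, 304030 to 305592, plus strand), a mitochondrial aldehyde dehydrogenase gene, had 14529 and 8742 scaled reads in gat1Δ proline, against 4180 and 5068 in gat1Δ glutamine. It rose by 1.29 ± 0.23 (adjusted p = 0.000883), and by 0.78 after TMM rescaling. ALD6 (YPL061W, chromosome 16, 432588 to 434090, plus strand), for the cytosolic enzyme that supplies acetate during fermentation, had 2821 and 3382 in gat1Δ proline, against 8469 and 8535 in gat1Δ glutamine (-1.45 ± 0.13). ALD5 made up 66.3% ± 11.8 of the density of the 3 aldehyde dehydrogenase genes in gat1Δ proline and 27.9% ± 2.33 in gat1Δ glutamine, whereas ALD6 made up 19.2% ± 5.83 and 53.5% ± 2.52. Their summed density differed little, at 12.5 and 9.66 scaled reads per base in gat1Δ proline and 10.2 and 11.0 in gat1Δ glutamine, with overlap. That holds on the authors' scaling only, since after TMM rescaling each gene's proline value stands lower.

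ALD4, for the main mitochondrial enzyme, and ACS2, for the acetyl-CoA synthetase used on glucose, did not pass at -0.36 ± 0.17 (adjusted p = 0.0828) and -0.34 ± 0.15 (adjusted p = 0.075). Their intervals ran from -0.74 to 0.02 and from -0.68 to 0.01, and after TMM rescaling both were lower, at -0.86 and -0.84. Without gat1Δ proline replicate 2 both passed as lower (-0.60 and -0.51).

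Glycerol-3-phosphate dehydrogenase leads from glycolysis to glycerol and takes up surplus NADH. GPD1 (YDL022W, chromosome 4, 411825 to 413000, plus strand), known for its response to osmotic stress, had 1523 and 1990 scaled reads in gat1Δ proline, against 3636 and 2912 in gat1Δ glutamine (-0.89 ± 0.17). GPD2 (YOL059W, chromosome 15, 217126 to 218448, plus strand), known for its response to lack of oxygen, had 4948 and 4239 in gat1Δ proline, against 1938 and 2246 in gat1Δ glutamine. It rose by 1.12 ± 0.14 (adjusted p = 0.000132), and by 0.62 after TMM rescaling. GPD2 held 74.3% and 65.4% of the density of the pair in gat1Δ proline, against 32.2% and 40.7% in gat1Δ glutamine, while their sum was 114% of that in gat1Δ glutamine. A share within a step is free of the scaling between libraries, so the exchanges in the hexokinase, TDH, ADH, ALD and GPD steps do not depend on it. The summed densities of the steps, here and below, do depend on it and follow the authors' scaling.

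**Figure D4:**
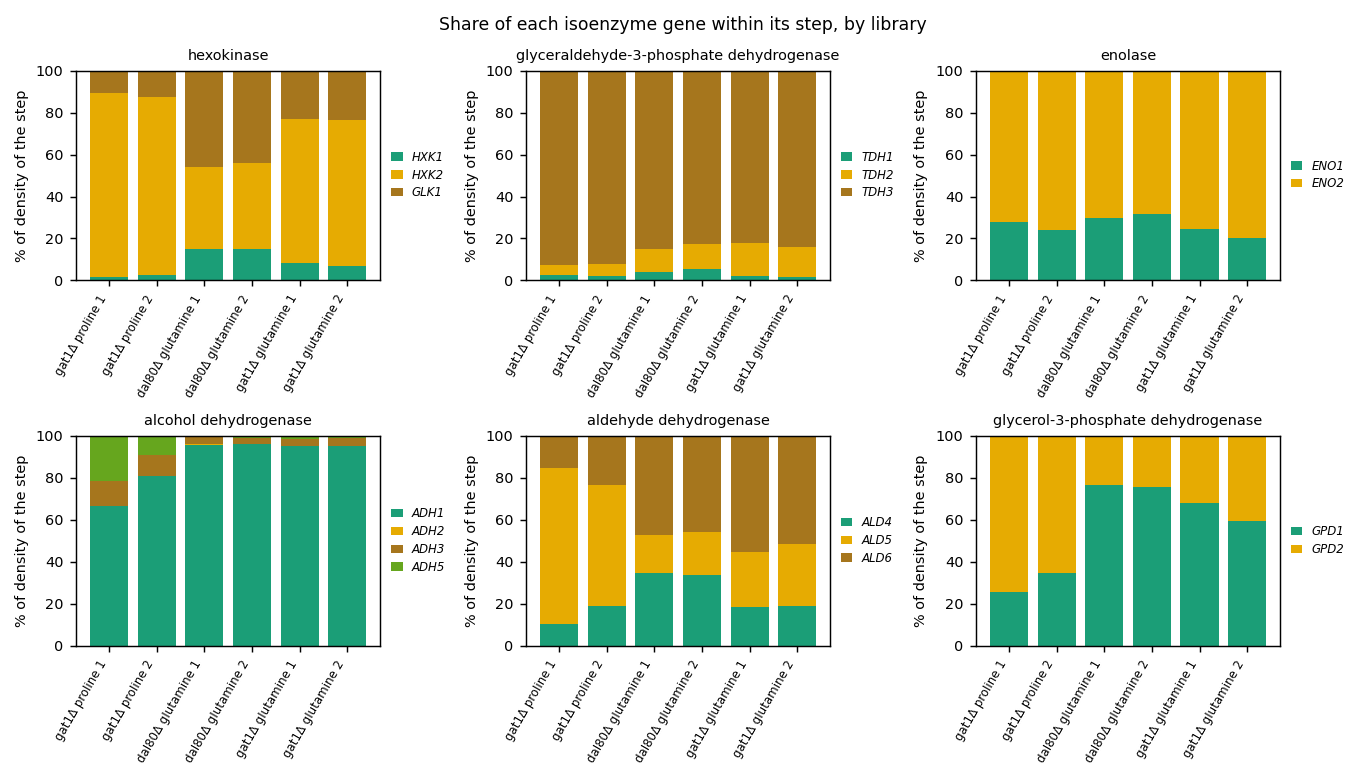
Share of each isoenzyme gene in the summed density of its step (y axis, percent) in each library (x axis), for 6 steps. In gat1Δ proline ALD5 and GPD2 hold the larger part of their steps, while in dal80Δ glutamine GLK1 holds 46.1% and 44.0% of the hexokinase step.

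Genes around the pathway were counted beside all genes, of which 56.5% rose and 15.1% fell (33.8% and 29.8% after TMM rescaling). Of 13 regulators of glycolysis and of glucose repression 6 rose and 1 fell (5 and 3 after TMM rescaling). MIG2 (2.35 ± 0.17) and MIG1 (1.69 ± 0.13), for repressors active on glucose, rose, and EMI2, for a hexokinase homolog, fell (-2.28 ± 0.18). The pathway's own activator genes GCR1 (0.10 ± 0.13) and RAP1 (0.11 ± 0.13) did not pass, and both stood at -0.37 after TMM rescaling. Of 14 genes for the mitochondrial and other uses of pyruvate 9 rose and 1 fell (9 and 5 after TMM rescaling), with MPC2 (2.48 ± 0.15), for a subunit of the mitochondrial pyruvate carrier, PYC1 (2.06 ± 0.14), for pyruvate carboxylase, and CYB2 (1.36 ± 0.14), for lactate dehydrogenase, at the smallest adjusted p. All 5 further genes of glycerol metabolism that were tested rose, 3 of them after TMM rescaling, among them GUT2 (1.41 ± 0.14) and GUT1 (1.26 ± 0.14), for glycerol use, and GPP1 (1.07 ± 0.18), for the phosphatase that releases glycerol. Of 11 further alcohol, aldehyde and acetate genes 3 rose and 4 fell (0 and 8 after TMM rescaling), including HFD1 (-0.81 ± 0.16), ADH6 (-0.61 ± 0.13) and ACS1 (0.72 ± 0.15), for the acetyl-CoA synthetase repressed by glucose.

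The comparison of the strains in glutamine gave a much smaller set. Of the 32 genes 5 were higher in dal80Δ, none was lower and 27 did not pass, where 3.97% of all genes tested were higher and 1.48% lower. By an unadjusted p under 0.05, 1587 of the 5594 genes differed. The median of the 32 was 0.04 and that of all genes -0.15, and after TMM rescaling 0.20 and -0.01, with 5 higher and none lower, against 6.19% and 0.894% of all genes. The quasi-likelihood test of edgeR gave 6 higher and 0 lower, with PYK2 added. DESeq2 gave 7 and 0, with PYK2 and ENO1 added. These tests also called more of all 5594 genes higher, 386 in edgeR and 438 in DESeq2, against 222 in limma. Lower were 67 and 82 genes, against 83 in limma. The comparison shares its gat1Δ glutamine libraries with the one above.

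The 5 genes are TDH1, HXK1, GLK1, ALD4 and GPD1. PYK2 (0.35 ± 0.13, adjusted p = 0.128) and ADH2 (-0.02 ± 0.15) were among the genes that did not pass in limma. The count tests did call PYK2 higher, at 0.53 in edgeR (adjusted p = 0.0349) and 0.52 in DESeq2 (adjusted p = 0.027). TDH1 (YJL052W, chromosome 10, 338271 to 339269, plus strand) had 20329 and 30494 scaled reads in dal80Δ, against 10292 and 7726 in gat1Δ, both in glutamine. It was higher by 1.48 ± 0.21 (adjusted p = 0.00457). HXK1 had 5846 and 5812 scaled reads in dal80Δ, against 2739 and 1984 in gat1Δ (1.31 ± 0.24, adjusted p = 0.0163). GLK1 had 18837 and 17686 in dal80Δ, against 7782 and 7061 in gat1Δ (1.30 ± 0.19, adjusted p = 0.0055). The reading frame YCL042W that overlaps GLK1 had 3980 and 3478 in dal80Δ, against 1573 and 1390 in gat1Δ.

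The other members of the set belong to the side branches. ALD4 (YOR374W, chromosome 15, 1039840 to 1041399, plus strand) had 7235 and 7103 scaled reads in dal80Δ, against 2936 and 3210 in gat1Δ (1.21 ± 0.17, adjusted p = 0.00418). GPD1 had 5353 and 5236 in dal80Δ, against 3636 and 2912 in gat1Δ (0.70 ± 0.17, adjusted p = 0.0474). The libraries of the strains did not overlap in any of the 5 genes, but neither did they in 22 of the 32 and in 63.9% of all genes tested. The call of GPD1 was the least firm. It ended with the replicate block (adjusted p = 0.0975), with no low-count filter (0.0566), with a larger pseudocount (0.0586), with the scaling that leaves out the 32 genes (0.0511) and without any of the 4 libraries compared (0.0537 to 0.236). Without dal80Δ replicate 1, dal80Δ replicate 2 or gat1Δ glutamine replicate 2 the count was 3, since HXK1 no longer passed either (0.0687 to 0.0769), while the count of all genes called was 110, 119 and 180, where 305 were called in all.

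Upstream of these 5 genes the stress response element AGGGG was found at least 2 times in the 600 bases before the start codon, on either strand. The windows shown hold every copy found in HXK1 (-600 to -325, chr6:255374-255649, minus strand), GLK1 (-190 to -155, chr3:50648-50683, plus), TDH1 (-455 to -217, chr10:337816-338054, plus) and ALD4 (-321 to -180, chr15:1039519-1039660, plus), and 2 of the 3 copies of GPD1 (-338 to -274, chr4:411487-411551, plus). They were chosen after the values had been seen. Capitals mark AGGGG or its reverse complement.
HXK1: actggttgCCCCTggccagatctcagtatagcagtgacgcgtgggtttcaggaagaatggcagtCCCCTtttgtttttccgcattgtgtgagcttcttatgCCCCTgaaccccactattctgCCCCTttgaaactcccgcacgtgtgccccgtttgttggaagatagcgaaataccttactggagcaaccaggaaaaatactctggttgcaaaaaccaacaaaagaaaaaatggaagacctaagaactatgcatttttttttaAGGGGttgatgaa
GLK1: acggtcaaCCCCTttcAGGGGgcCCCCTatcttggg
TDH1: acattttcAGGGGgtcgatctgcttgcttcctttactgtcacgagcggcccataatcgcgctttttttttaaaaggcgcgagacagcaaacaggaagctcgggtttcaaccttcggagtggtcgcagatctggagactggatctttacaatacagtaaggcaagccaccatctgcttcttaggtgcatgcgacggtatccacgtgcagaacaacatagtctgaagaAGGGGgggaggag
ALD4: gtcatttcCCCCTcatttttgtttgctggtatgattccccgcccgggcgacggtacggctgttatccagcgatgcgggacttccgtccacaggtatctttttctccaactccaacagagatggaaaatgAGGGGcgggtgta
GPD1: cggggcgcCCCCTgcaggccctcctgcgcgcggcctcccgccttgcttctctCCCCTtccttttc
HXK1 has 5 copies, GLK1 has 3 packed within 20 bases, GPD1 has 3, and TDH1 and ALD4 have 2 each. Over the genome 40% of 5769 windows have AGGGG at least once and 10.9% at least 2 times. Of the 27 genes that did not pass, 4 have 2 or more copies, with 3 each in TDH3 and ALD6 and 2 each in ADH2 and GPD2, as many as or more than in TDH1 and ALD4. A link between AGGGG and the higher level of the 5 genes was not tested. In GPD1 the copy at -286 shares 2 bases with a CTTCC. The letters GATAAG, known for GATA factors, were found in none of the 5 windows of 600 bases, in 10 of the 27 genes that did not pass and in 26.9% of all windows, and a match or its absence says nothing on binding.

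The other 27 genes did not pass, among them the densest gene in gat1Δ glutamine of each step with several genes except GPD1 of the glycerol step. TDH3 had 457853 and 459734 scaled reads in dal80Δ, against 412249 and 443711 in gat1Δ (0.10 ± 0.17, interval -0.29 to 0.49). ENO2 had 212819 and 215222 in dal80Δ, against 242634 and 259644 in gat1Δ (-0.23 ± 0.19, interval -0.66 to 0.20). GPM1 had 65925 and 75790 in dal80Δ, against 93723 and 83177 in gat1Δ (-0.32 ± 0.18, interval -0.74 to 0.10). The libraries of TDH3 were higher in dal80Δ without overlap and those of ENO2 and of GPM1 lower, but none of these genes passed. Lack of overlap was seen in 63.9% of all genes tested.

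PDC1 had 272311 and 268757 scaled reads in dal80Δ, against 248729 and 268981 in gat1Δ (0.06 ± 0.15). ADH1 had 156331 and 183524, against 154179 and 161961 (0.10 ± 0.25). The values of both genes overlapped between the strains. CDC19 had 175196 and 189960 in dal80Δ, against 214629 and 215677 in gat1Δ (-0.24 ± 0.16, adjusted p = 0.339). PFK1 had 33973 and 33375, against 35424 and 37037 (-0.10 ± 0.13). ALD6 had 9567 and 9337, against 8469 and 8535 (0.15 ± 0.13). The largest changes on the scale with the pseudocount among the 27 that did not pass were those of ADH5 (-0.58 ± 0.22, adjusted p = 0.137), HXK2 (-0.44 ± 0.15, adjusted p = 0.105) and ENO1 (0.40 ± 0.16, adjusted p = 0.155), and the 27 intervals together ran from -1.08 to 0.77. DESeq2 called ENO1 higher (0.55, adjusted p = 0.0143), whereas edgeR did not (0.56, adjusted p = 0.133). PDC6, with few reads, stood at 0.23 ± 0.16 on that scale and at 0.89 in edgeR (adjusted p = 0.169).

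Within the steps the strains differed most in hexose phosphorylation. HXK2 had 15527 and 16026 scaled reads in dal80Δ, against 22391 and 20584 in gat1Δ. HXK2 made up 40.1% ± 1.37 of the density of the step in dal80Δ, against 69.2% ± 1.03 in gat1Δ (SD, n = 2), and GLK1 made up 46.1% and 44.0%, against 23.1% and 23.3%. The order of HXK2 and GLK1 was thus the opposite in the strains, while the summed density of the step in dal80Δ was 127% of that in gat1Δ. ALD4 made up 34.6% and 33.6% of its step in dal80Δ, against 18.5% and 18.7% in gat1Δ, and GPD1 made up 76.7% and 75.5%, against 67.8% and 59.3%. TDH1 made up 3.78% and 5.49% of its step in dal80Δ, against 2.05% and 1.46% in gat1Δ, and TDH3 made up 83.9% ± 1.65 in dal80Δ and 83.0% ± 1.25 in gat1Δ. With 2 libraries against 2 no exact test of these shares can go below p = 0.333.

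Genes around the pathway were also compared between the strains, where 3.97% of all genes were higher and 1.48% lower. Of the 13 regulators 1 passed, GCR1, which was lower at -0.57 ± 0.13 (adjusted p = 0.0425), a call that ended after TMM rescaling (-0.43, adjusted p = 0.0654), where PFK27, for a kinase that makes an activator of phosphofructokinase, passed as higher instead (0.65). Of the 14 pyruvate genes CYB2 (1.29 ± 0.14) and DLD1 (0.53 ± 0.12), both for lactate dehydrogenases, were higher. Of the 11 further alcohol, aldehyde and acetate genes 3 were higher and 1 was lower (5 and 1 after TMM rescaling). They were led by ALD3 (2.69 ± 0.13), for a stress-induced aldehyde dehydrogenase with a near copy in ALD2, BDH2 (2.24 ± 0.27) and ACH1 (0.62 ± 0.13), and ADH4 (-1.06 ± 0.25) was the lower gene. Of the 5 glycerol genes GUT2 (0.66 ± 0.14) was higher.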

How the data were processed

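Total RNA from hot phenol was depleted of ribosomal RNA, and strand-specific libraries were sequenced as 2 × 50 nt pairs, per the labels' protocols. TopHat and build R64 are named in the submitters' processing notes; no source used here gives the counting program or the handling of strand and of reads with several matches. The deposited table holds, per the file headers, a normalized density signal and a read count for each library. The count was whole in gat1Δ proline replicate 1, and in the others the authors had multiplied whole reads by 1 factor per library, so whole reads were recovered (100% of positive values within 0.01 reads). A further 6 columns of group values were not used.

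The test took genes that reached 10 scaled reads in 2 or more libraries. It used log2 of the density plus 0.0229 (percentile 5 of the positive densities over genes) in limma 3.58.1 (R 4.3.3), an intensity trend and group as the only factor over all 6 libraries, and Benjamini-Hochberg adjustment over all genes. Fold changes understate the change of low genes. edgeR 4.0.16, DESeq2 1.42.0, TMM and RLE scaling, filters, pseudocounts, a replicate block and each library left out were alternatives. The fit was also run on simulated reads in which few genes changed, in either direction, so that run cannot speak for the scaling in proline. The labels call the cultures biological replicates. Replicates correlated at r = 0.989, 0.995 and 0.992 over genes in gat1Δ proline, dal80Δ and gat1Δ glutamine, and differed by more than sampling noise. Of 5809 identifiers in RefSeq R64, 5777 had the same start and end, among them all 32 members. The members and lists were chosen with earlier results of these data known. Values in every library were given for the densest gene of each step with several genes and the 5 largest changes of each comparison, with others added after their values were seen, and up to 3 genes per list by adjusted p.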

Additional observations from a re-analysis of the deposited data

How the results depend on the processing

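The 22 falls in proline were 21 to 25 under the alternatives run. The 7 rises were 4 with TMM, with RLE, with edgeR, with DESeq2 and with scaling to the total over genes without the members (chosen after seeing the data), and 4 to 6 with a library left out; PDC6, ADH5, ALD5 and GPD2 stayed past the threshold under the scalings and count tests. Of all genes, 1889 rose with TMM, 1755 with RLE, 1874 with edgeR and 1651 with DESeq2, against 3162 in the main fit. PDC5 turned to -0.0570 (TMM), -0.11 (RLE), -0.0454 (edgeR) and -0.10 (DESeq2), and GPM3 to -0.0160 (RLE) and -0.0162 (DESeq2). In dal80Δ against gat1Δ, the 5 rises were 3 to 5 with a library left out, and all genes called were 520 by DESeq2 and 110 to 369 with a library left out, against 305. Leaving out a library of a compared group leaves 1 there, assumed to vary like the rest. Members past the threshold in neither setting changed sign 26 times there. The proline difference in read share was -11.1 points over all features. The replicate block gave 208 calls against 305, and 4 member rises against 5; in proline it gave 3886 against 4006 and changed no member's call. Same-numbered deviations correlated at -0.25 to 0.01, and the labels tie the numbers to no batch. With the dal80Δ numbers crossed in the block, a pairing added after seeing the data, 409 genes were called in dal80Δ against gat1Δ, with 5 member rises, and 4110 in proline, with 24 falls. The cause of these shifts was not tested. Depth limits PDC6 and ADH2 most, with 17 to 125 recovered reads.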
